A study of Mus musculus with 12 samples.

Results

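The messenger RNA of untreated mouse Th17 cells was described from 3 libraries, untreated 1, 2 and 3, out of 12 in the series. They were chosen by their labels, as the group that received no agent after Th17 polarization. All 12 libraries came from wild-type cells: naive CD4+ T cells were cultured for 72 h with plate-bound anti-CD3 and anti-CD28, and with TGF-B, IL-6, anti-IFN-g (against interferon gamma) and anti-IL-4. The untreated cells received nothing further, and the other 3 groups, of 3 libraries each, were given dexamethasone (Dex, a synthetic glucocorticoid), IL-1B (interleukin-1 beta) or Dex+IL-1B for the last 4 h. Nothing in the labels tells whether replicate libraries are separate cultures or separate animals, so the spread between them, and every p-value, may be technical. The labels name no sort after polarization, so each library is RNA of a whole polarized culture.

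Th17 cells are helper T cells that guard barrier tissues against fungi and bacteria that live outside cells, and that contribute to autoimmune inflammation. TGF-B and IL-6 act through SMAD factors and STAT3 to switch on a set of transcription factors that drive the neighbouring cytokine genes Il17a and Il17f. Blocking interferon gamma and IL-4 holds back the alternative Th1 and Th2 fates, whose master factors are T-bet (Tbx21) and GATA3. IL-23 and IL-1B act later and are known for adding inflammatory functions such as secretion of GM-CSF, the product of Csf2.

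The promoters of the 2 genes used as markers of the lineage are shown for reference; the part of their sequence in the levels was not tested. The 250 bases before each RefSeq start, on the GRCm38.p6 build and read 5′ to 3′ on the gene's own strand, lie at chr1:20730655-20730904 (plus strand) for Il17a and chr1:20784271-20784520 (minus strand) for Il17f. Capitals mark TATAAA, the core of a TATA box, and AGGTCA, a half-site read by many nuclear receptors, or its reverse complement TGACCT.
Il17a: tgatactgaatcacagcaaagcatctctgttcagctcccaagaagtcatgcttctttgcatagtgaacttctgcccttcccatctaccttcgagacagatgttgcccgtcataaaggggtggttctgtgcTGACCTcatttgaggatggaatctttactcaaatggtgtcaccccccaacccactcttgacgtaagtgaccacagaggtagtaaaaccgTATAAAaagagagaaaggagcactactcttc
Il17f: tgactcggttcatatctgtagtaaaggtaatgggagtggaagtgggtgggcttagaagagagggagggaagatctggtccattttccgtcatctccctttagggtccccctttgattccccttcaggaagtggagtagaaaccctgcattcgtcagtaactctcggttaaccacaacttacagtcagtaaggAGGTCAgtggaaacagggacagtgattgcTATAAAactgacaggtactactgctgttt
In Il17a the first base of TATAAA lay 31 bases before the start and that of TGACCT 120 bases before it. In Il17f these distances were 29 bases for TATAAA and 58 bases for AGGTCA. Of 32851 RefSeq windows of the same length, 12.4% held TATAAA on either strand, 1.75% held it on the gene's strand with its first base 25 to 35 bases before the start, and 14% held AGGTCA on either strand. The motifs do not overlap each other in these windows, and a match of letters is a description and not a binding site.

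The untreated libraries held 24215652, 30445734 and 20272945 counted reads in untreated 1, 2 and 3, against 16904106 to 24106318 in the other 9. Levels are given as TPM, reads divided by the gene's merged exon length and scaled to the same total in each library, so that genes can be compared with each other; ranks are by the mean of the 3 libraries. Log2 CPM of the 3 libraries correlated across genes at 0.989 (untreated 1 and 2), 0.981 (1 and 3) and 0.991 (2 and 3). IL-1B 2 and Dex+IL-1B 1 carried up to 1.74% of their reads in genes that overlap ribosomal RNA sequence, against 0.351%, 0.473% and 0.317% in untreated 1, 2 and 3. Some counts of called genes are therefore also given without these 2 libraries.

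Of 34490 annotated genes, 12185 reached at least 1 TPM in all 3 untreated libraries, 10722 of them protein-coding, and the median level of those detected was 23.2 TPM. At least 100 TPM in all 3 was reached by 1618 genes and at least 1000 TPM by 120 genes, and 14588 genes had no read. The libraries each detected 12991, 12947 and 12901 genes at 1 TPM, within the range of 12622 to 13024 in the other 9 libraries. The message pool was concentrated: the 10 most abundant genes held 8.99%, 9.48% and 9.23% of TPM in untreated 1, 2 and 3, and the 100 most abundant held 31.2%, 33.2% and 33.3%. These shares depend on the gene length used, and the 100 most abundant genes averaged 32.5%, against 27.4% when the median transcript length was the divisor.

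The machinery of protein synthesis filled the top of the ranking. Eef1a1, the elongation factor that delivers aminoacyl-tRNA to the ribosome, was the most abundant gene at 15415, 16217 and 16290 TPM, a mean of 15974 TPM. Among the 15 most abundant nuclear protein-coding genes, 11 encode ribosomal proteins (Rplp1, Rplp0, Rps2, Rpl13a, Rps15, Rps3a1, Rpl36, Rpl4, Rpl8, Rpl32 and Rpsa) and Eef2 encodes the elongation factor of translocation. The other two were Ptma, a chromatin-associated protein of dividing cells, at rank 7, and beta-actin (Actb) at rank 10. The 84 ribosomal protein genes held 17.3%, 19.2% and 19.7% of TPM in untreated 1, 2 and 3, and the 13 mitochondrially encoded genes held 3.48%, 3.27% and 3.09%. Reads of ribosomal protein genes can be shared with processed pseudogenes, so each single value is uncertain. Among the 15 most abundant, Rpl32 had the widest ratio of highest to lowest library, 1.37, and Rpl8 the narrowest, 1.01.

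**Figure D1:**
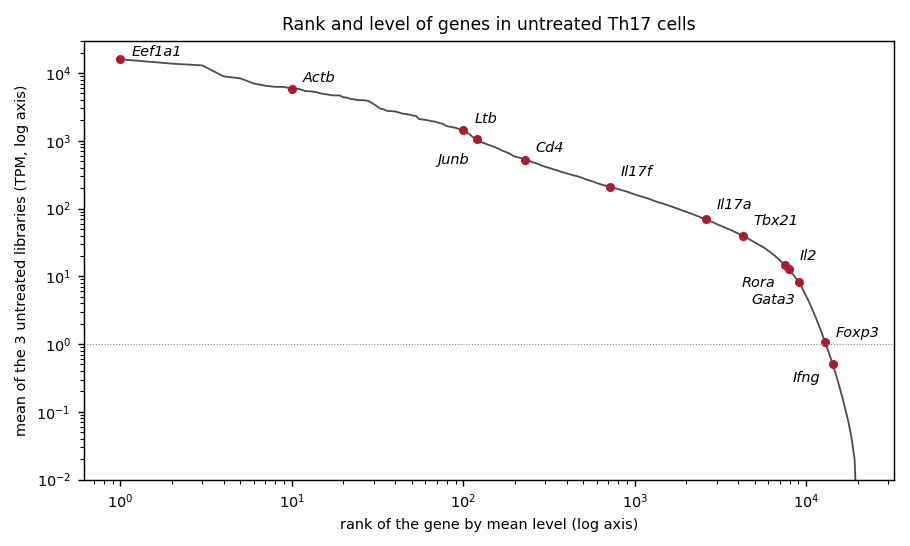
Mean level in the 3 untreated libraries (TPM, log axis) against rank (log axis) for all genes with reads, with 13 genes marked. Il17f sits at rank 716 and Il17a at rank 2597, with Cd4 above both at rank 229 and Foxp3 and Ifng near or below 1 TPM (dotted line).

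Th17 lineage transcription factors were all detected, and 9 of the 15 averaged at least 100 TPM. Junb, an AP-1 subunit that partners BATF at Th17 enhancers, was highest and Rora, a nuclear receptor, lowest. Junb had 1061, 1089 and 1066 TPM in untreated 1, 2 and 3, a ratio of 1.03 between the highest and the lowest library. Irf4, which binds DNA together with BATF, had 717, 653 and 704 TPM. The oxygen-regulated factor Hif1a had 492, 456 and 443 TPM. These 3 kept their order in all 3 libraries with ranges apart from one another.

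Rora had 16.4, 13.2 and 13.9 TPM, ranking 7551. Stat3, the mediator of IL-6, was the steadiest of its neighbours at 162, 159 and 162 TPM. Maf (223, 199 and 191 TPM), Bhlhe40 (147, 218 and 230 TPM), Stat3, Satb1 (182, 153 and 145 TPM) and Batf (187, 143 and 126 TPM) overlapped each with the next in the ranking, so the order inside this block did not exceed the spread between libraries. Lower levels were seen for Ahr, the receptor for aryl hydrocarbons that favours Il22 transcription, with 55.2, 49.2 and 41.6 TPM, for Ikzf3 (86.3, 55.8 and 40.3 TPM) and for the NF-kB cofactor Nfkbiz (35.4, 19.7 and 20.2 TPM). Ikzf3, which encodes Aiolos, was the Th17 factor with the widest spread, highest in untreated 1 and lowest in untreated 3 by a ratio of 2.14.

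Of the 9 cytokine genes of the lineage list, 4 reached at least 1 TPM in all 3 libraries, and the highest value among the remaining 5 was 4.13 TPM, for Csf2 in untreated 3. Il17f had 306, 177 and 146 TPM in untreated 1, 2 and 3, from 4315, 3252 and 1791 reads. Il17a had 98, 62.8 and 46.7 TPM, from 801, 669 and 331 reads. Both IL-17 genes were highest in untreated 1 and lowest in untreated 3, by ratios of 2.09 for Il17f and 2.10 for Il17a, and both markers of the label were thus present in all 3 libraries.

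Il21, a cytokine that feeds back on Th17 cells and helps B cells, did not share this spread: it had 194, 193 and 198 TPM, a ratio of 1.03. Ccl20, the chemokine ligand of CCR6, had 132, 120 and 120 TPM. Il21 lay above Ccl20 and Ccl20 above Il17a in all 3 libraries with ranges apart, whereas Il17f and Il21 overlapped: Il17f was higher in untreated 1 and lower in untreated 2 and 3. Csf2 had 3, 8 and 20 reads, Il24 had 5, 2 and 21, Il22 had 0, 5 and 5, and Il10 had 2, 3 and 6 reads. No read fell in Il9 in any untreated library, which allows up to 0.124, 0.0985 and 0.148 CPM (3 reads of the total, counting error only). Csf2, Il24, Il22 and Il10 each had their highest level in untreated 3, on few reads.

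The ratio of Il17f to Il17a was steadier than either gene, at 3.12, 2.82 and 3.13 in untreated 1, 2 and 3. Over the other 9 libraries this ratio ran from 1.57 (Dex 1) through a median of 2.15 to 3.57 (Dex 2). The untreated libraries averaged 3.02 ± 0.18 (SD, n = 3) and the others 2.29 ± 0.582 (SD, n = 9), a difference of 0.44 on the log2 scale with a two-sided exact permutation p of 0.0545, a test added after these values were seen. The difference therefore missed the threshold. Leaving out untreated 1, 2 or 3 gave an exact permutation p of 0.145, 0.109 and 0.145, in that order. It was 0.0121 without Dex 2, 0.0485 without Dex+IL-1B 3, and 0.0727 without any other single library. The untreated libraries lay inside the range of the others. The absolute ratio depends on the annotated length of Il17f, whose merged exons span 2022 bases although its longest transcript has 1178. Dividing by the longest transcript gave a mean ratio of 5.19 and by the median transcript one of 8.55, with Il17a, whose own length was the same 1171 bases, at 20.9 TPM.

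**Figure D2:**
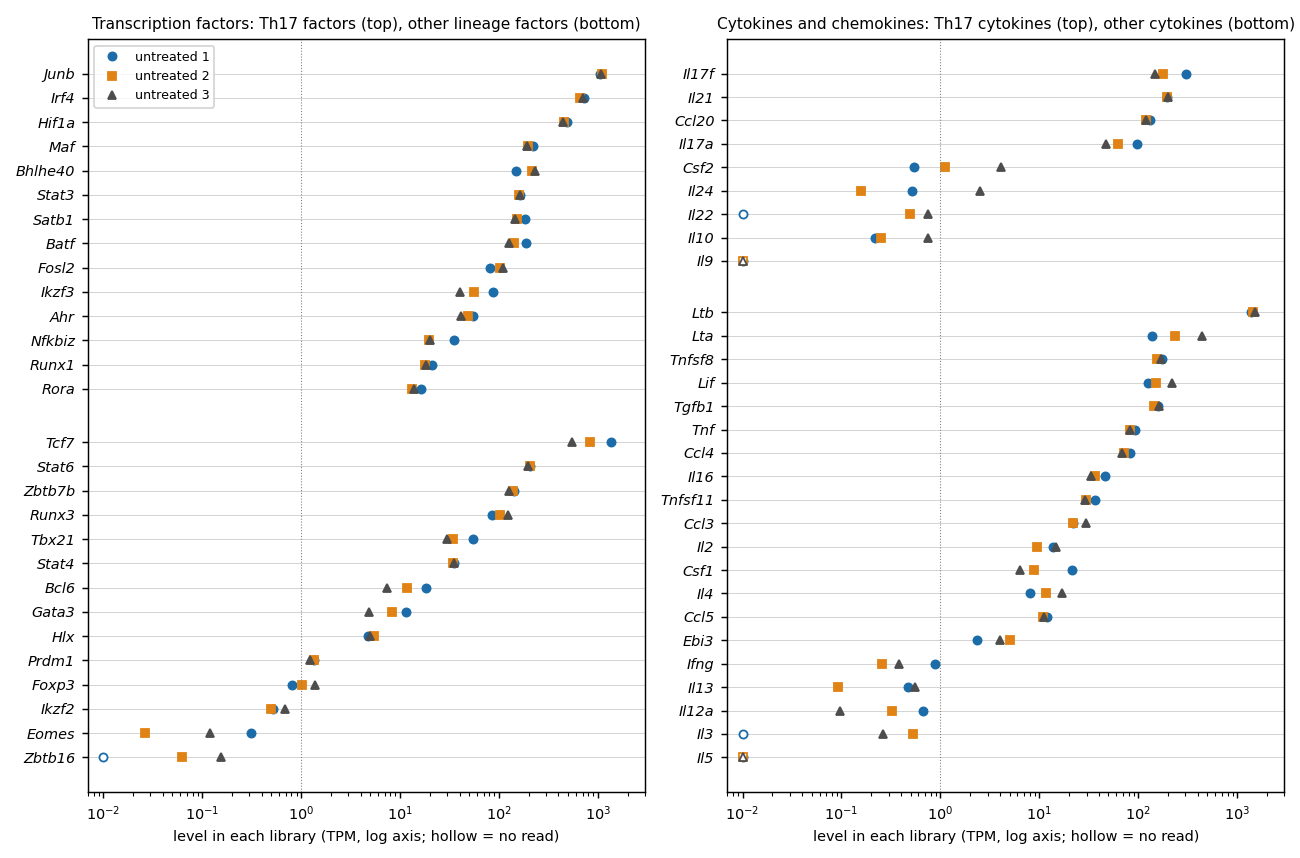
Level of transcription factors (left) and cytokines (right) in untreated 1, 2 and 3 (TPM, log axis), each point 1 library, with genes in order of their mean; hollow points had no read and the dotted line marks 1 TPM. Il17a and Il17f are spread over a ratio of about 2.10, whereas Il21, Junb and Stat3 overlie.

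Factors of other T cell fates ranged from very abundant to a few reads. Tcf7, which encodes TCF-1 and marks naive and memory-like T cells, was the highest with 1373, 839 and 551 TPM and was spread by a ratio of 2.49, highest in untreated 1. Tbx21 had 54.2, 34.6 and 30 TPM and Gata3 11.6, 8.24 and 4.82 TPM, both highest in untreated 1 and lowest in untreated 3. Foxp3, the factor of regulatory T cells that TGF-B can also induce, had 0.814, 1.03 and 1.37 TPM from 26, 43 and 38 reads. Eomes (9, 1 and 3 reads) and Zbtb16 (0, 3 and 5 reads), factors of cytotoxic and innate-like T cells, were close to the detection limit. Signalling factors were steadier: Stat6, used by IL-4, had 206, 206 and 198 TPM, and Stat4, used by IL-12, had 34.8, 34.7 and 35.3 TPM.

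Among cytokines that are not specific to Th17 cells, members of the TNF family led. Ltb (lymphotoxin beta) had 1385, 1431 and 1510 TPM and ranked 100 among all genes. Its partner Lta had 139, 236 and 443 TPM, lowest in untreated 1 and highest in untreated 3 by a ratio of 3.20. Tgfb1 averaged 155 ± 9.53 TPM, Tnf 86 ± 5.76 TPM and Lif, a cytokine of the IL-6 family, 165 ± 49.1 TPM (SD, n = 3 each). The growth factor gene Il2 had 13.6, 9.42 and 14.9 TPM. Among signature cytokines of the other fates, Il4 (Th2) was detected at 8.05, 11.6 and 16.8 TPM, a level near that of Il2. The others named were rare: Ifng (Th1) had 8, 3 and 3 reads, Il13 had 4, 1 and 4 reads, and Il5 had none.

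Receptors for the polarizing cytokines were present at moderate levels. For IL-6, the binding chain Il6ra had 61.7, 50.3 and 45.8 TPM and the signalling chain Il6st (gp130) 36.9, 24.3 and 21.1 TPM. For TGF-B, Tgfbr2 had 57.5, 44.9 and 39 TPM, above Tgfbr1 at 21.4, 17.9 and 17.4 TPM. All 4 were highest in untreated 1.

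The receptor chains that answer growth cytokines were higher. Il2ra (CD25), which raises affinity for IL-2, had 721, 792 and 939 TPM, and the shared chains Il2rb and Il2rg averaged 392 ± 1.82 and 185 ± 15.7 TPM (SD, n = 3 each). Il21r had 238, 227 and 232 TPM. The IL-23 receptor gene Il23r had 51.9, 41 and 35.5 TPM, and Il12rb1, the chain it shares with the IL-12 receptor, 113, 130 and 139 TPM. Il1r1, through which IL-1B signals, had 28.7, 16.8 and 10.7 TPM, and the decoy receptor Il1r2 had 10.3, 10.6 and 12.5 TPM. Il1r1 exceeded Il1r2 in untreated 1 and 2 and not in untreated 3. Of 33 receptor chains, 30 reached at least 1 TPM in all 3 libraries and 11 averaged at least 100 TPM; Il1rl1, the IL-33 receptor of type 2 cells, had 3, 0 and 1 reads.

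Chemokine receptors were headed by Ccr7, the receptor for lymph node entry, at 676, 628 and 557 TPM. Ccr4, found on Th2 and Th17 cells, had 146, 147 and 193 TPM. Ccr6, the receptor for CCL20 and a surface marker of Th17 cells, had 23.1, 12.1 and 15 TPM, so the receptor ranked 7096 while its ligand gene Ccl20 ranked 1361. Cxcr3, associated with Th1 cells, had 26.6, 16.6 and 12.4 TPM, and the gut-homing receptor Ccr9 had 12, 4 and 1 reads. The glucocorticoid receptor Nr3c1 was present before any Dex at 26.9, 23.9 and 22.4 TPM, and its chaperone gene Hsp90ab1 ranked 20 at 4172, 4478 and 4517 TPM. Among its classical targets, Tsc22d3 (GILZ) had 38.7, 36.4 and 26.2 TPM and Fkbp5 36.1, 36.2 and 36.5 TPM, Fkbp5 being the steadier.

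The T cell receptor complex checked the identity of the cells. All 20 genes of the T cell list reached at least 1 TPM in all 3 libraries, and 17 averaged at least 100 TPM. Cd4 had 530, 534 and 519 TPM, against 3.90, 3.08 and 3.27 TPM of Cd8a and 11.6, 10.8 and 9.80 TPM of Cd8b1. The CD3 chains Cd3d, Cd3g and Cd3e averaged 505 ± 9.45, 293 ± 14.8 and 157 ± 7.34 TPM (SD, n = 3 each). The constant-region gene Trbc2 had 1539, 1571 and 1592 TPM and Trbc1 973, 840 and 762 TPM, but these copies are nearly identical and reads could be split between them. Reads in 21 Trbv segments were led by Trbv3 (11.2% ± 0.195 of Trbv reads), Trbv1 (10.6% ± 0.789) and Trbv31 (9.02% ± 0.617; SD, n = 3 each).

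Genes of activated T cells were abundant beside genes of the naive state. The costimulatory receptor Tnfrsf4 (OX40) had 492, 588 and 678 TPM and the inhibitory receptor Ctla4 607, 672 and 691 TPM. Lag3 had 339, 308 and 268 TPM and Pdcd1 (PD-1) 134, 118 and 100 TPM, while Havcr2 (TIM-3) had no read. Tnfrsf18 (GITR) was spread by a ratio of 3.11, with 55.2, 102 and 172 TPM. In the naive and homing list, Igfbp4 had 1853, 1452 and 1319 TPM, the quiescence factor Klf2 319, 219 and 127 TPM, and S1pr1, which directs exit from lymph nodes, 162, 104 and 72.3 TPM. Each of these 3 was highest in untreated 1 and lowest in untreated 3. Tnfrsf18, Tnfrsf4 and Ctla4 were lowest in untreated 1 and highest in untreated 3, but of the 19 activation genes at 1 CPM or more 11 were highest in untreated 1 and 6 in untreated 3, by log2 CPM. In bulk RNA, fewer cells of a type and less RNA per cell cannot be told apart.

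Genes used as references in quantitative PCR ran in level between Eef1a1, at rank 1, and Tbp, the TATA-binding protein, at rank 8584 (10.2, 9.24 and 10 TPM). In TPM, the narrowest ratios of highest to lowest library were those of Ppia at 1.02 (1122, 1135 and 1116 TPM), Tubb5 at 1.05 and Eef1a1 at 1.06. The scale matters: by log2 CPM after TMM scaling, Sdha stayed closest to its mean among these genes. It stood at 0.0145, -0.021 and 0.0066 in untreated 1, 2 and 3, beside -0.0489, 0.0377 and 0.0112 for Ppia. Hprt had 380, 405 and 413 TPM, a ratio of 1.09, and Actb had 1.08. Gapdh had 3659, 4164 and 4136 TPM, a ratio of 1.14, and was lowest in untreated 1.

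The cells carried high levels of cell-cycle genes. Pcna, the sliding clamp of DNA replication, had 675, 660 and 652 TPM, Top2a 564, 509 and 494 TPM and Mki67 526, 480 and 457 TPM. The mitotic cyclin Ccnb1 had 133, 122 and 113 TPM. The 22 genes of the list kept a median SD of 0.0593 log2 CPM between libraries, the lowest of the lists with at least 10 genes measured at 1 CPM or more. Glycolysis genes stood among the most abundant: Pgk1 had 3622, 4024 and 4164 TPM, Pkm 3269, 3543 and 3720 TPM and Ldha 2971, 2926 and 2901 TPM. The glucose transporter Slc2a3 was the exception in spread, with 147, 286 and 330 TPM, a ratio of 2.25, and Slc2a1 had 166, 223 and 266 TPM.

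Markers of other cell types were read as a check on purity. Of 13 B cell markers measured, 12 reached at least 1 TPM in all 3 libraries, led by Ighm at 216, 147 and 130 TPM, with Cd79a at 29, 21.7 and 18.6 TPM and Ms4a1 (CD20) at 3.03, 1.74 and 1.95 TPM. Summed over the list, B cell markers came to 422, 280 and 258 TPM in untreated 1, 2 and 3, against 188 to 247 TPM in the other 9 libraries. Of 18 myeloid markers, Adgre1, Clec9a and S100a9 had no read, and Lyz2 had 0, 4 and 4, Cd14 0, 3 and 2 and Csf1r 1, 0 and 3 reads. The list summed to 268, 304 and 312 TPM, against 272 to 340 TPM in the other 9 libraries. Cst3 (133, 149 and 166 TPM) and the MHC class II gene H2-Ab1 (97.6, 113 and 118 TPM), neither restricted to myeloid cells, led it, followed by the neutrophil marker Ly6g (25.7, 31.3 and 18.8 TPM). The NK cell receptors Ncr1 (0, 0 and 1 reads) and Klrb1c (5, 0 and 0 reads) were near 0, whereas Gzmb (granzyme B), which activated helper cells can also express, had 74.4, 142 and 235 TPM. The 10 red cell and platelet markers summed to 3.70, 3.24 and 1.47 TPM, and 4 measured gamma-delta and innate markers to 7.91, 5.32 and 5.30 TPM.

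Spread between the untreated libraries was measured on log2 CPM. Over the 11925 genes that averaged 1 CPM or more, the median SD of log2 CPM was 0.12 in untreated, against 0.0525 from counting alone, and against 0.119, 0.176 and 0.151 in the Dex, IL-1B and Dex+IL-1B groups. It was 0.328 for genes at 1 to 3 CPM and 0.0795 for genes at 100 to 300 CPM. In 605 genes (5.07%) the 3 libraries spanned more than 2-fold. Most of this lay between 2 libraries: 517 genes differed over 2-fold between untreated 1 and 3, 225 between 1 and 2 and 121 between 2 and 3. Without untreated 1 the median SD was 0.0772.

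In some gene lists most members departed together, by log2 CPM after TMM scaling. Of the 11 naive and homing genes at 1 CPM or more, 10 were highest in untreated 1 and 10 lowest in untreated 3, where 40.7% of all 11925 genes were highest in untreated 1 and 36.9% lowest in untreated 3. Of the 18 glycolysis genes, 16 were highest in untreated 3 and 17 lowest in untreated 1 (all genes, 35.8% and 39.6%). Order on this scale can differ from that in TPM: Ldha, highest in untreated 1 by TPM, stood at -0.03, 0.02 and 0.01 log2 CPM from its mean in untreated 1, 2 and 3. Of the 12 B cell markers, 10 were highest in untreated 1. Housekeeping genes went with glycolysis, a list that shares Gapdh and Pgk1, with 13 of 20 highest in untreated 3. Other lists were mixed: 15, 5 and 11 of 31 cytokine receptor chains were highest in untreated 1, 2 and 3, and so were 5, 1 and 4 of 10 chemokine receptors, 4, 5 and 4 of 13 factors of other fates and 3, 0 and 3 of 6 Th17 cytokines. As median departures from the mean of the 3 libraries, untreated 1 stood at 0.23 log2 for naive and homing, 0.39 for B cell markers and -0.20 for glycolysis, and untreated 3 at -0.14, -0.21 and 0.12. Over all genes the medians were 0.0027 in untreated 1 and -0.0011 in untreated 3. The departure of untreated 1 from the mean of untreated 2 and 3 was also taken by transcript length and GC content, over all genes and not by list. Across 5 bins of 11874 genes its median stayed between -0.03 and 0.04 log2 for length and between -0.02 and 0.04 for GC. The part of B cells, of transcript length and of GC content in the departures of the lists was not tested.

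**Figure D3:**
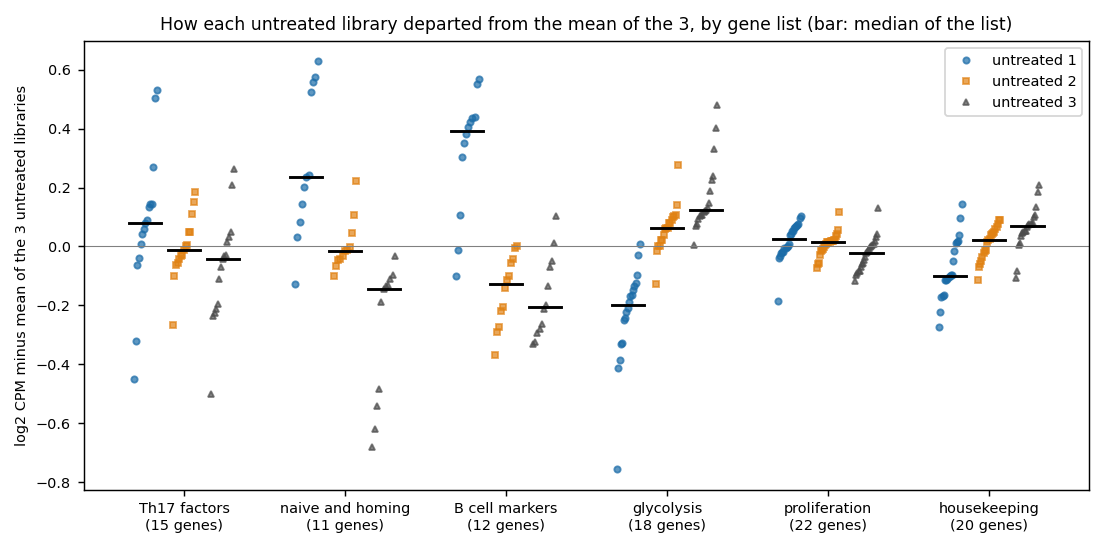
Departure of each gene from the mean of the 3 untreated libraries (log2 CPM) for 6 gene lists, each point 1 gene in 1 library and each bar the median of the list. Naive and homing genes and B cell markers lie high in untreated 1 (0.23 and 0.39) while glycolysis genes lie low there (-0.20), and proliferation genes stay near 0 in all 3.

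Among 7957 protein-coding genes with a mean of at least 10 TPM, 122 spanned more than 2-fold between the untreated libraries, 56 of them highest in untreated 1, 3 in untreated 2 and 63 in untreated 3. The 10 with the largest ratios were chosen for that spread, so their values are a description. Gipr, the receptor of the gut hormone GIP, had 1.32, 14.6 and 18.8 TPM, a ratio of 14.3. Basp1 had 12, 31.4 and 73.8 TPM, and the AP-1 factor Batf3, known for its role in dendritic cells, had 11, 34 and 51.9 TPM. The transglutaminases Tgm1 (7.65, 29.3 and 54.1 TPM) and Tgm2 (107, 242 and 421 TPM), Selenbp1 (11, 40.5 and 44.5 TPM) and Armcx4 (8.69, 22.3 and 43.4 TPM) had the same order, and in all 8 of the 10 were lowest in untreated 1 and highest in untreated 3. Tox2 (23.8, 8.15 and 4.37 TPM) and the proton pump subunit Atp6v0d2 (96.6, 41.1 and 20.1 TPM) ran the other way. The gene just outside the 10 was Rpl35, with a ratio of 3.92, beside 3.95 for Tgm2, the last inside.

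Some of these genes also differed between libraries of the groups given Dex. Basp1 was lowest in Dex 2 within the Dex group (29.3 TPM, against 110 and 106 TPM in Dex 1 and 3) and in Dex+IL-1B 1 within the group given both (35.7 TPM, against 131 and 79 TPM). Batf3 had 37 TPM in Dex 2, against 105 and 112 TPM in the other Dex libraries, and Atp6v0d2 had its highest Dex level there, 29.3 TPM against 9.76 and 10 TPM. With IL-1B alone Basp1 had 96.4, 76.7 and 95.4 TPM, Tgm1 35.2, 30.3 and 38.7 TPM and Selenbp1 24.4, 22.9 and 25.3 TPM. Other genes were spread wider there: Gipr had 9.20, 5.87 and 15.9 TPM and Atp6v0d2 10.6, 28.9 and 11.2 TPM. Batf3 had 91.9, 44.3 and 69.1 TPM and Tox2 3.52, 8.21 and 6.90 TPM with IL-1B alone. Across genes the departures of untreated 1 correlated with those of Dex 2 at 0.29, and those of untreated 3 with Dex 2 at -0.35, as a description of libraries from separate groups. They were the highest and the lowest of all such correlations between groups. Departures are taken from the mean of their own group, so these values are not independent of each other.

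**Figure D4:**
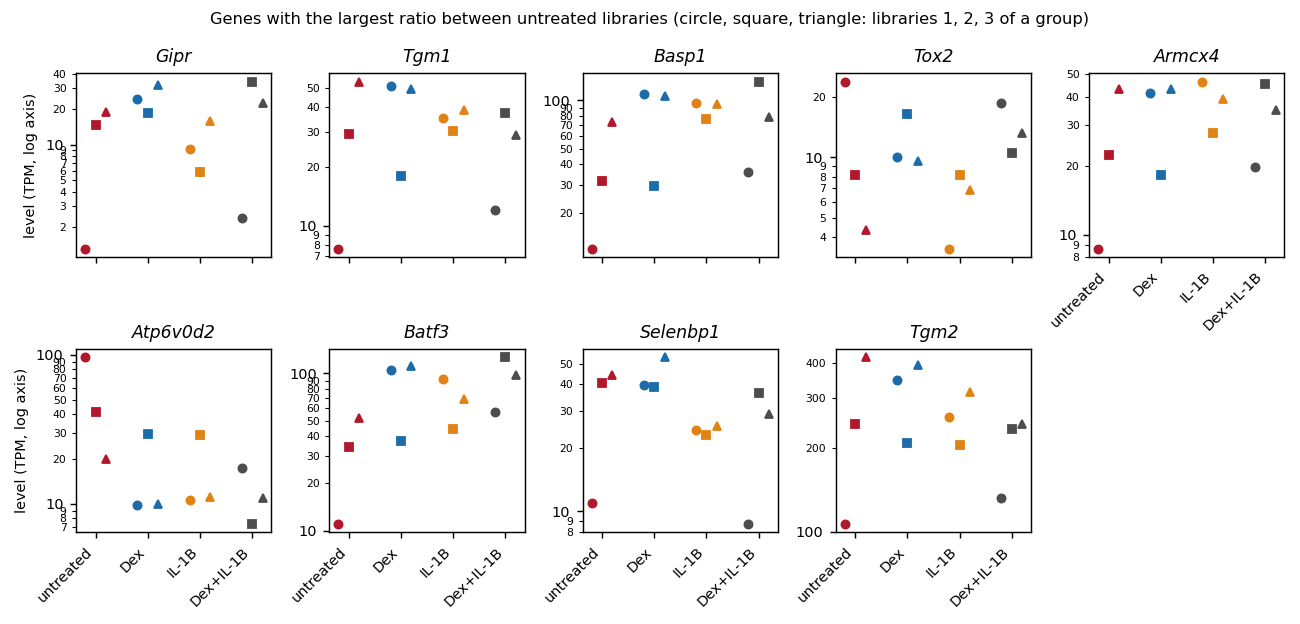
Level (TPM, log axis) of 9 of the 10 genes with the largest ratio between untreated libraries, in all 12 libraries, with the groups on the x axis and symbols for the replicate number. Gipr and Basp1 are lowest in untreated 1 of all 12 libraries, and Tox2 and Atp6v0d2 are highest there.

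Set against the rest of the series, the baseline differed in 920 genes that were higher in untreated (6.66% of 13821 tested) and 983 that were lower (7.11%), by edgeR's quasi-likelihood test with a Benjamini-Hochberg adjusted p under 0.05 against the mean of the other 3 groups. The single-group contrasts share the untreated libraries and were unequal: 23 genes (0.166%) were higher and 51 (0.369%) lower than with Dex, 1315 (9.51%) higher and 1644 (11.9%) lower than with IL-1B, and 1081 (7.82%) higher and 1430 (10.3%) lower than with Dex+IL-1B. The count against all 3 groups rested on single libraries, with 1903 genes in all, 680 without untreated 1, 521 without untreated 2 and 2906 without IL-1B 2 and Dex+IL-1B 1. Without these 2 libraries 257 genes were called against Dex, 3204 against IL-1B and 3163 against Dex+IL-1B. A difference from the mean of the 3 groups does not say that untreated differed from each of them. Over all 13821 genes and against that mean, DESeq2 called 1238 higher and 1270 lower, and limma-voom 1061 higher and 1040 lower. List counts by these tools are to be read beside those totals. Counts at an unadjusted p under 0.05 for the lists below are given without the share of all genes at that threshold. They are a description only. Against Dex alone, 2 of 7 Th17 cytokines and 3 of 18 other cytokines were higher in untreated, 1 of 10 genes around the glucocorticoid receptor and 1 of 19 activation genes were lower, and no member of the other 14 lists was called by edgeR. Of 82 called genes that are named here or belong to the lists, 36 were called in all 19 alternatives run.

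Of the 15 Th17 factors, 3 were higher, 4 lower and 8 not called, with a median difference of -0.17 log2 where that of all genes was -0.0051. Without untreated 1 these counts were 1 and 2, without untreated 2 they were 0 and 2, and without IL-1B 2 and Dex+IL-1B 1 they were 3 and 5. Nfkbiz was lower in untreated by 1.42 ± 0.20 log2 (SE; edgeR adjusted p = 0.00123), at 35.4, 19.7 and 20.2 TPM, against 25.5 to 122 TPM in the other 9 libraries, with untreated 1 inside that range. Batf was lower by 0.62 ± 0.12 (edgeR adjusted p = 0.00423). Both calls held in all 19 alternatives. Against IL-1B and against both agents Nfkbiz differed by -1.55 ± 0.23 and -2.17 ± 0.23 (edgeR adjusted p = 0.00103 and 0.00011), and against Dex by -0.53 ± 0.23 (edgeR adjusted p = 0.464). Batf differed by -1.09 ± 0.14 and -1.11 ± 0.14 (edgeR adjusted p = 0.000311 and 0.000205), and against Dex by 0.33 ± 0.14 (edgeR adjusted p = 0.434).

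Among the 13 tested factors of other fates, 6 were higher and none lower by edgeR (8 and 2 at an unadjusted p under 0.05; 7 and 2 by DESeq2, 6 and 0 by limma-voom), with a median difference of 0.65 log2, and 4 of the higher ones held in all 19 alternatives. Tbx21 was higher by 1.01 ± 0.19 (edgeR adjusted p = 0.00492), its 3 untreated values lying above the 11.5 to 25.5 TPM of the other 9 libraries. Hlx, a partner of T-bet, was higher by 0.98 ± 0.19 (edgeR adjusted p = 0.00491). Zbtb7b, which fixes CD4 identity, was higher by 0.40 ± 0.08 (edgeR adjusted p = 0.0056). Gata3 was higher by 1.04 ± 0.22 (edgeR adjusted p = 0.00766), but its adjusted p was 0.0754 without untreated 1, the library where it was highest. Against Dex alone the differences of these 4 were 0.85 ± 0.24, 0.78 ± 0.24, 0.34 ± 0.10 and 0.84 ± 0.28, in the order named, with edgeR adjusted p-values of 0.191, 0.224, 0.196 and 0.268. Leaving out untreated 1 gave 4 higher factors, and leaving out Dex 2 gave 9.

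**Figure D5:**
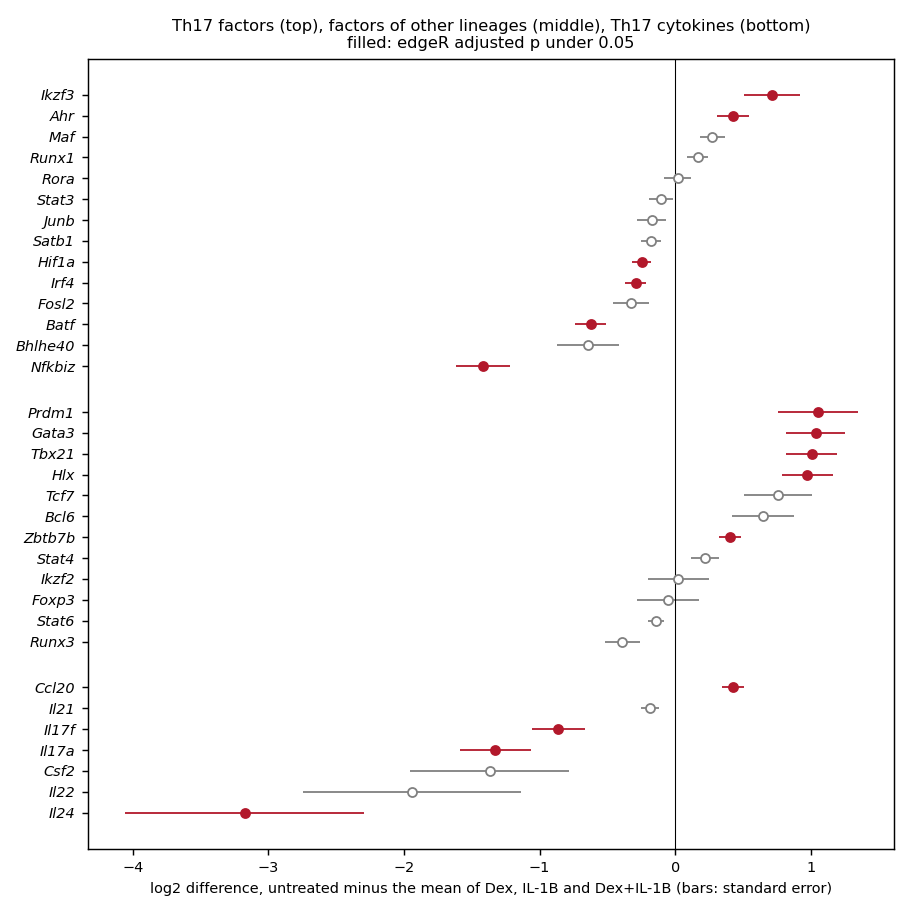
Log2 difference of untreated minus the mean of the Dex, IL-1B and Dex+IL-1B groups, with its standard error, for 14 of the 15 Th17 factors, 12 of the 13 factors of other fates and the 7 Th17 cytokines tested; filled points had an edgeR adjusted p under 0.05. Nfkbiz lies at -1.42 and Il17a at -1.33, and Tbx21 and Gata3 lie at 1.01 and 1.04.

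Of the 7 Th17 cytokine genes tested, 1 was higher and 3 lower in untreated by edgeR (1 and 6 at an unadjusted p under 0.05; 1 and 6 by DESeq2, 1 and 2 by limma-voom), with a median difference of -1.33 log2. Without untreated 2 the lower ones numbered 0 by edgeR, and without IL-1B 2 and Dex+IL-1B 1 they numbered 4. With all libraries they included Il24, lower by 3.18 ± 0.89 (edgeR adjusted p = 0.036), a call made in 9 of the 19 alternatives. Il24 and Csf2 had few reads in untreated and passed the filter on low counts through other groups. For these genes the filter itself favoured a lower level in untreated. Il17a averaged lower in untreated than in the other groups by 1.33 ± 0.26 log2 (edgeR adjusted p = 0.00807; 0.061 without untreated 2). Taken singly it was lower than with IL-1B by 2.50 ± 0.31 (edgeR adjusted p = 0.000562) and than with both agents by 2.23 ± 0.30 (edgeR adjusted p = 0.000788), whereas its difference from Dex was 0.75 ± 0.31 (edgeR adjusted p = 0.443). Il17f was lower than the mean of the other groups by 0.86 ± 0.19 (edgeR adjusted p = 0.0137; 0.0957 without untreated 2 and 0.0609 with no filter on low counts). It was lower than with IL-1B by 2.01 ± 0.23 (edgeR adjusted p = 0.000304) and than with both by 1.84 ± 0.23 (edgeR adjusted p = 0.000356). With Dex it had 74.3, 94.6 and 85.6 TPM, all under the 3 untreated values, and was higher in untreated by 1.27 ± 0.23 (edgeR adjusted p = 0.035), a call made in 9 of the 19 alternatives and not without Dex 1 (edgeR adjusted p = 0.211). Ccl20 differed from each group: it was higher in untreated than with Dex by 1.46 ± 0.11 (edgeR adjusted p = 1.06e-05), lower than with IL-1B by 0.64 ± 0.10 (edgeR adjusted p = 0.00112), and higher than with both by 0.46 ± 0.10 (edgeR adjusted p = 0.00755), in all 19 alternatives. Il2 had 13.6, 9.42 and 14.9 TPM in untreated, against 11.8, 3.91 and 13.3 TPM with Dex, 114 to 160 TPM with IL-1B and 106 to 123 TPM with both. Its difference from Dex was 0.34 ± 0.33 (edgeR adjusted p = 0.823), and it was lower than with IL-1B by 3.56 ± 0.30 and than with both by 3.27 ± 0.30 (edgeR adjusted p = 3.11e-05 and 4.86e-05). Among receptors, Il1r1 was higher in untreated by 1.68 ± 0.28 (edgeR adjusted p = 0.00368), and Il1rn, the gene of the secreted IL-1 antagonist, was lower by 1.90 ± 0.23 (edgeR adjusted p = 0.00033). Against Dex alone these were 0.91 ± 0.36 and 0.11 ± 0.28 (edgeR adjusted p = 0.425 and 0.951). By mean level in untreated, only Il9r and Il1rl1 of the receptor list lay under Il1rn, so its difference rested on a low level. Of 18 other cytokines 3 were higher and 2 lower (median -0.04 log2), and of 32 receptor chains 8 were higher and 4 lower (median 0.13 log2), or 3 and 1 without untreated 1 and 3 and 2 without untreated 2. The lower cytokines were Il2 and Il3, and Il3 lay under Il13 by mean level in untreated, so it too passed the filter through other groups. Of 10 chemokine receptors 2 were higher and 4 lower (median -0.06 log2), or 1 and 1 without untreated 1, 2 and 0 without untreated 2 and 2 and 2 without untreated 3.

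Naive and homing genes were higher in untreated in 2 cases of 12 and lower in 1 (median 0.32 log2), with 5 higher without Dex 2, and 3 higher and 2 lower without IL-1B 2 and Dex+IL-1B 1. Both higher ones were called in all 19 alternatives: Klf2 by 1.23 ± 0.24 and S1pr1 by 1.19 ± 0.21 (edgeR adjusted p = 0.0075 and 0.00469). Against Dex alone they differed by 0.20 ± 0.30 and 0.43 ± 0.27 (edgeR adjusted p = 0.91 and 0.684). Klf2 was higher than with IL-1B by 2.32 ± 0.33 (edgeR adjusted p = 0.00106), and than with both by 1.17 ± 0.31 (edgeR adjusted p = 0.0233), the second called in 13 of the 19 alternatives. Of 19 activation genes 6 were higher and 3 lower (median -0.07 log2), or 4 and 1 without untreated 1 and 5 and 1 without untreated 2. Pdcd1 was higher by 0.74 ± 0.13 and Lag3 by 0.51 ± 0.07 (edgeR adjusted p = 0.00423 and 0.00115), and against Dex alone they differed by 0.30 ± 0.17 and 0.37 ± 0.09 (edgeR adjusted p = 0.637 and 0.122).

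Of 20 T cell identity genes 5 were higher and none lower by edgeR (11 and 1 at an unadjusted p under 0.05; 7 and 1 by DESeq2, 5 and 0 by limma-voom), with a median of 0.21 log2. The higher ones numbered 1 without untreated 1, 0 without untreated 2, 9 without IL-1B 2 and 11 without IL-1B 2 and Dex+IL-1B 1. Of 10 genes around the glucocorticoid receptor none was higher and 2 were lower (1 and 4 at an unadjusted p under 0.05; 0 and 4 by DESeq2; median -0.11 log2), among them Fkbp5, a chaperone that glucocorticoids induce, by 0.75 ± 0.08 (edgeR adjusted p = 0.00027; 4 lower genes without IL-1B 2 and Dex+IL-1B 1). Fkbp5 was lower than with Dex by 1.12 ± 0.10 (edgeR adjusted p = 4.83e-05) and differed from IL-1B by -0.23 ± 0.10 (edgeR adjusted p = 0.113). Of 18 glycolysis genes none was higher and 2 were lower (0 and 5 at an unadjusted p under 0.05; 0 and 3 by DESeq2; 4 lower without IL-1B 2 and Dex+IL-1B 1; median -0.15 log2).

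None of the 20 housekeeping genes was called by edgeR (1 higher and 4 lower at an unadjusted p under 0.05) or by limma-voom, while DESeq2 called 1 and edgeR without IL-1B 2 and Dex+IL-1B 1 called 4. Their median difference was -0.06 log2. Of 22 proliferation genes 3 were higher and 1 lower (median 0.10 log2; 1 higher without untreated 1, 0 without untreated 2 and 6 without IL-1B 2 and Dex+IL-1B 1), the lower one being Ccnd2, a G1 cyclin, at -0.64 ± 0.13 (edgeR adjusted p = 0.00595). Of 13 B cell markers tested 5 were higher and none lower by edgeR (7 and 0 at an unadjusted p under 0.05; 6 and 0 by DESeq2, 5 and 0 by limma-voom; median 0.51 log2), but without untreated 1 only Ighm, the heavy chain of IgM, was called, and 4 were without IL-1B 2 and Dex+IL-1B 1. With all libraries Ighm was higher by 0.64 ± 0.11 (edgeR adjusted p = 0.00339). Among the 7 CD8 and NK markers tested 3 were higher (median 0.52 log2), among them Klrd1, an NK cell receptor chain, by 0.64 ± 0.12 (edgeR adjusted p = 0.00476). Against Dex alone Ccnd2, Ighm and Klrd1 differed by -0.15 ± 0.15, 0.54 ± 0.14 and 0.17 ± 0.15, with edgeR adjusted p-values of 0.832, 0.147 and 0.805. Of 6 myeloid markers 1 was higher: Itgam, the integrin chain CD11b, with 84, 22 and 7 reads in untreated, by 2.09 ± 0.65 (edgeR adjusted p = 0.049). That call was made in 6 of 18 alternatives, with an adjusted p of 0.636 without untreated 1. Of 2 gamma-delta and innate and 2 red cell and platelet markers none was called by edgeR (1 and 0 at an unadjusted p under 0.05).

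The 12 protein-coding genes with the largest called differences and no overlap between the 3 untreated and the 9 other libraries were chosen by that rule, so their separation is a description. Of the 12, Ccl3, Ccl4, Cd69 and Serpinb6b were also called against Dex alone by edgeR. Those calls against Dex were made in 17, 10, 7 and 12 of the 19 alternatives, in the order named. The higher ones were Spp1 (osteopontin), Tgtp2 (an interferon-induced GTPase), the chemokines Ccl3 and Ccl4, the lectin Clec2i and the redox enzyme Glrx. Ccl4 had 82.9, 71.5 and 68.6 TPM in untreated, against 12.1 to 39.1 TPM in the other 9 libraries, a difference of 1.51 ± 0.17 log2, and Ccl3 had 22.1, 22 and 29.3 TPM, against 3.77 to 13.4 TPM. Ccl3 rested on 118, 153 and 136 reads and averaged 5.35 CPM in untreated, so that it passed the minimum of 5 CPM through untreated. Spp1 was uneven within the group, with 150, 69.4 and 49.6 TPM, against 13 to 43.1 TPM. Ccl3, Ccl4 and Tgtp2 have close paralogs and their reads are uncertain in part.

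The lower ones were Sytl3, Lrfn1, Cd69, Prickle1, Ncoa7 and Serpinb6b. Cd69, an early activation antigen that keeps T cells in tissue, had 20.4, 17.4 and 18.1 TPM in untreated, against 23.2 to 25.6 TPM with Dex, 42.7 to 44.5 TPM with IL-1B and 66.7 to 75.9 TPM with both. Its difference from the mean of the 3 groups was -1.24 ± 0.07 log2. Sytl3, a synaptotagmin-like protein of vesicle traffic, had 2.26, 2.04 and 2.35 TPM, against 2.83 to 12 TPM, and averaged 3.20 CPM in untreated, so that it passed the minimum of 5 CPM through the other groups. Lrfn1 had 5.85, 6.82 and 6.74 TPM, against 7.36 to 22.4 TPM. Prickle1 was called in 16 of the 19 alternatives; its adjusted p by edgeR was 0.0735 without untreated 1, 0.0803 without untreated 2 and 0.069 with no filter on low counts. The other 11 genes were called in all 19, in each case against the mean of the 3 groups.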

How the data were processed

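Poly-A RNA of 12 libraries, 4 groups of 3, was sequenced after random fragmentation. A deposited table holds what the authors counted: unnormalized reads, as whole-number counts of each gene; 0 of its 12 columns of values were left unused and 0 lines named no gene. STAR 2.7.0a, HTSeq 0.6.1 and DESeq2 are named per the submitters' processing notes, with builds GRCm38 and mm10 and no roles; the strand setting is not given in the sources used here, so overlapping or antisense genes cannot be told apart. Total counts ran from 16904106 to 30445734 per library. Reads without molecular identifiers are not independent molecules, so floors (3 counts) cover counting error only.

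Of 35275 identifiers, 34490 matched the GENCODE M21 annotation of GRCm38; the rest held 0.0942% of untreated counts. Levels (TPM) were counts over merged exon length, scaled to the same total in each library. Spread is the SD of log2 CPM (edgeR 4.0.16 in R 4.3.3, TMM scaling, prior count 2). Differences came from a robust edgeR quasi-likelihood fit over all 12 libraries in 4 groups (13821 genes after the edgeR filter, 8 residual degrees of freedom), with Benjamini-Hochberg adjustment per contrast, SEs from the log2 difference and its F, and calls at 0.05. The fit was also run on counts simulated with the same dispersion for every gene and no outlying library, so that run does not cover the spread seen here. Alternatives were DESeq2 1.42.0, limma-voom (limma 3.58.1), median-ratio size factors, other filters, the replicate number as a block, each library left out, other gene lengths and other thresholds. The exact permutation test of the Il17f to Il17a ratio used scipy 1.17.1.

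Named genes were the members of 18 lists, the 15 most abundant nuclear protein-coding genes, the 10 with the largest ratio between untreated libraries at 10 TPM or more, and the 6 largest called differences in each direction without overlap, with at least 5 CPM in untreated or in the mean of the other groups. The members and lists were chosen with earlier results of these data known. Promoter sequences are from RefSeq on GRCm38.p6; of 21397 protein-coding genes, 76.2% matched an entry. A few genes that the rules name are not reported here.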

Additional observations from a re-analysis of the deposited data

How the results depend on the processing

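Counts of called genes depended most on single libraries. Against the other 3 groups, 1903 genes were called, 521 to 2316 with 1 library left out and 2906 without IL-1B 2 and Dex+IL-1B 1. Against Dex, 74 genes were called by edgeR, 281 by DESeq2, 138 with no filter on low counts, 257 without IL-1B 2 and Dex+IL-1B 1, and 16 to 257 with 1 library left out (257 without Dex 2). Against IL-1B, 2959 were called, and 1555 to 3337 with 1 library left out; against Dex+IL-1B, 2511 and 1262 to 3384. With the replicate number as a block the counts were 1759, 61, 2783 and 2431; same-numbered libraries departed together by correlations of -0.21 to 0.18, so the numbers were not taken as pairs. Of the 82 named called genes no direction turned under any of the 19 alternatives, and 164 of 1556 values lost the call. These genes were chosen for their call and the alternatives reused the same libraries, so a kept direction is a description and no independent support.

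Levels depended on the gene length. The ratio of Il17f to Il17a was 3.02 with merged exons, 5.19 with the longest transcript and 8.55 with the median transcript, and Il17a was 69.2, 50.9 and 20.9 TPM. The 100 most abundant genes held 32.5% of TPM, 33.8% by longest transcript, 27.4% by median transcript and 30.9% without mitochondrial and rRNA-overlapping genes. The median SD between untreated libraries was 0.12, and 0.0772 to 0.127 with 1 library left out. For low genes such as Csf2, Il22 and Ifng the reads per library limit any statement on their order.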

Other observations

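The cells of all libraries carried the same sex-linked pattern, noted after the values were seen. Ddx3y, a Y-linked helicase, had 59.5, 48.3 and 49.8 TPM in untreated 1, 2 and 3, and 45.3 to 58.3 TPM in the other 9 libraries. Xist, the RNA that silences an X chromosome, had 2, 10 and 3 reads in untreated 1, 2 and 3.

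Reads in T cell receptor segments were spread over 76 Trav and 21 Trbv genes in the untreated libraries, with 2640, 3168 and 2195 Trav reads and 5637, 6726 and 4380 Trbv reads. Trbv3 held 11%, 11.2% and 11.4% of Trbv reads in untreated 1, 2 and 3, and 10.3% to 12.6% in the other 9 libraries, so its share lay within the range of the rest of the series.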
